A study of Chlamydomonas reinhardtii with 25 samples.

Results

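Cerium and yttrium were set against each other in the unicellular green alga Chlamydomonas reinhardtii. The 10 libraries compared were the 5 labelled Ce and the 5 labelled Y, out of 25 in a series that also holds 5 libraries each of a control, of thulium (Tm) and of a ternary mixture of the metals (Mix). All came from the wild-type strain CC-125. Cells were grown in diluted TAP medium at 20 °C with 12 h of light per day to mid-exponential phase, and washed in medium free of metal. The exposure lasted 2 h and took place at pH 7.0, in a medium buffered by NaHEPES (10 mM) that also held calcium nitrate (10 µM). The metal was added at 0.5 µM in the Ce and in the Y groups, so the labelled dose and time were the same. Polyadenylated RNA was sequenced as stranded libraries with paired reads of 100 bases.

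Cerium is a light rare earth element and yttrium is usually placed with the heavy ones, because its ion is of similar size to theirs. Both occur in water as trivalent ions. Cerium differs from most of the series in that it can also be oxidised to a tetravalent form. Trivalent rare earth ions resemble the calcium ion in size and in their preference for oxygen ligands, and they are known in animal and plant cells as blockers of calcium channels and as competitors at calcium-binding sites.

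Abundance was read as counts per transcript, with totals of about 17211000 to 25029000 counts in the Ce libraries and 16183000 to 20914000 in the Y libraries. Levels below are in CPM, in which each library's counts are divided by its total after TMM scaling, given as mean ± SD over 5 libraries, and differences are log2 values of Ce minus Y with their standard error (SE). Transcripts carry the IDs of the deposited table. Neither that table nor the reference used here gives them names, so no role is attached to an ID and the labelled cells could not be checked against marker genes. Whether each library came from its own culture is not stated in the labels, so a p-value here speaks only of the spread among libraries, which may be technical.

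Ce and Y libraries formed separate, tight groups. The correlation of log2 CPM across transcripts ran from 0.987 to 0.994 between libraries of the same metal and from 0.908 to 0.932 between libraries of different metals. The first principal component held 85.5% of the variance among the 10 libraries and the second 3.07%. The biological coefficient of variation was 10.6% in Ce and 9.92% in Y, so neither group was the noisier one.

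Most of the transcriptome differed between the metals. Of 12324 transcripts with enough counts to be tested, 10073 (81.7%) were called at an adjusted p under 0.05 by the quasi-likelihood test of edgeR, 5598 higher in Ce (45.4%) and 4475 lower (36.3%). In 8582 transcripts (69.6%) the libraries of the metals did not overlap at all: in 4731 (38.4%) every Ce library lay above every Y library, and in 3851 (31.2%) every Ce library lay below. The ranges overlapped in 1507 of the transcripts that were called, and 16 transcripts without overlap were not called. Those not called had a median absolute difference of 0.14 with a median SE of 0.15. Those called had a median absolute difference of 0.99 with a median SE of 0.13.

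Many of these differences were small, and with TMM scaling the large ones were more often higher in Ce. A test against a minimum change of 2-fold, made on the same edgeR fit, called 3557 transcripts (28.9%), of which 2387 were higher in Ce (19.4%) and 1170 lower (9.49%). By the fitted difference, 7367 of the tested transcripts (59.8%) lay within 2-fold. Of the tested transcripts, 1099 (8.92%) were called and at least 4-fold higher in Ce, and 213 (1.73%) at least 4-fold lower. At 8-fold the counts were 254 (2.06%) and 27 (0.219%), and at 16-fold they were 72 (0.584%) and 4 (0.0325%). The balance of the directions depends on how the libraries are scaled. With library totals alone, 75.4% of the calls were higher in Ce in place of 55.6%, the median difference of all tested transcripts was 0.69 in place of 0.15, and 4058 transcripts were called as more than 2-fold higher and 328 as more than 2-fold lower. The direction of 468 calls was then the opposite one. Upper-quartile factors also moved the directions away from balance, with 63.5% of the calls higher in Ce. With them 2988 transcripts were called as more than 2-fold higher and 747 as more than 2-fold lower. DESeq2 and RLE scaling brought the directions nearer to balance. More than 2-fold higher and lower in Ce were 1595 and 1169 transcripts with DESeq2, and 2111 and 1487 with RLE scaling. Of all calls, 51.1% were higher in Ce with DESeq2 and 51.2% with RLE scaling. DESeq2 and RLE scale libraries by the same method, so they are not separate checks. The median difference of all tested transcripts was 0.039 with each.

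**Figure D1:**
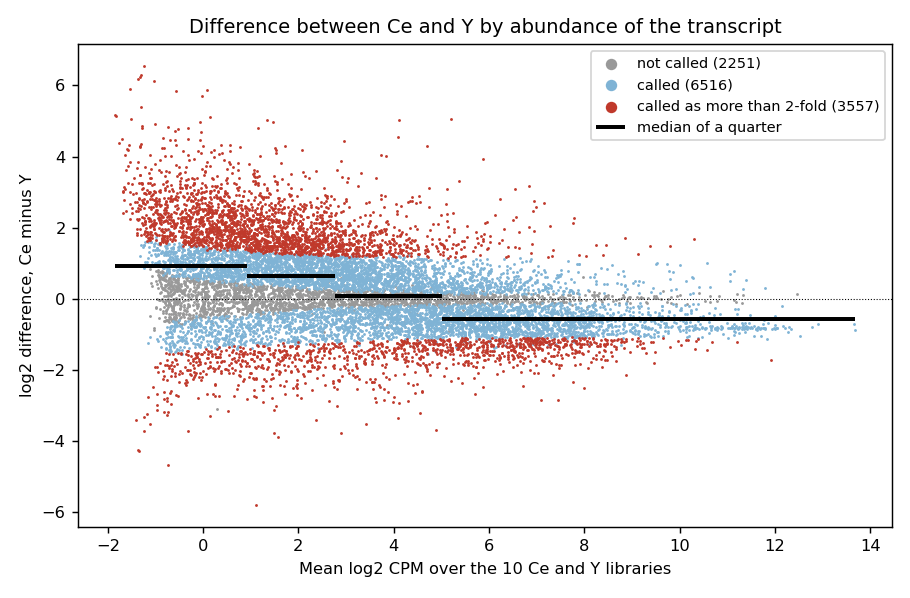
Each point is 1 of 12324 tested transcripts, with its mean log2 CPM over the 10 libraries on the horizontal axis and its log2 difference, Ce minus Y, on the vertical axis. Grey points were not called, blue points were called, and red points were called as more than 2-fold; black lines give the median of 4 equal sets ordered by abundance, which falls from 0.91 on the left to -0.56 on the right.

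The sign of the difference followed abundance. The tested transcripts were ordered by their mean log2 CPM over all 10 libraries and cut into 4 sets of 3081. In the least abundant set, with a median level of 0.987 CPM, 1816 transcripts were called higher in Ce and 542 lower. The next set, at 3.56 CPM, had 1861 higher and 653 lower. In the set after that, at 13.98 CPM, the directions were close to balance, with 1352 higher and 1147 lower. In the most abundant set, at 97.7 CPM, 569 were higher and 2133 lower. The median differences of these sets were 0.91, 0.64, 0.08 and -0.56. Each Ce library alone, set against the mean of the Y libraries, gave a median between 0.83 and 0.95 in the least abundant set and between -0.61 and -0.53 in the most abundant, so the sets were separated by far more than the spread between libraries. The distance between the least and the most abundant set was 1.47 with TMM scaling and 1.46 with library totals alone. A change of scaling moves the differences of all transcripts by nearly the same amount, so it leaves this distance nearly unchanged. The near equality is therefore no check of the trend. Where the line between higher and lower falls does depend on the scaling. With library totals alone the medians were 1.44, 1.18, 0.62 and -0.02.

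Large differences were also spread unevenly over these sets. In the least abundant set 41.7% of the transcripts were called as more than 2-fold different, 1084 higher in Ce and 200 lower. In the most abundant set the share was 19.1%, with 95 higher and 494 lower. The median SE was 0.27 in the first and 0.06 in the last. The minimum of counts was set on the Ce and Y libraries themselves, so a scarce transcript may have been tested only because it was high with one metal. The sets were therefore also formed from 11375 transcripts for which both the minimum of counts and the order came from the control, Tm and Mix libraries alone. Their medians were 0.77, 0.53, -0.0066 and -0.57, and the shares called as more than 2-fold different were 36.8%, 28.4%, 17.5% and 17.5%. An order from these libraries is not neutral between the metals. Over transcripts with large differences, Tm and Mix lay near Y by their median, as given below. Such an order can place transcripts low in Y among the scarce ones, so it is no independent check of the trend. When only the order was taken from the control, Tm and Mix libraries, the medians were 1.22, 0.53, 0.00058 and -0.61. The minimum of counts then still came from the Ce and Y libraries. A scarce transcript could thus again be tested only through high counts in Ce or in Y.

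The most abundant messages made up a smaller part of the Ce libraries. The 100 transcripts with the highest mean share held 31.8%, 31.6%, 33.0%, 30.9% and 30.5% of all counts in Ce libraries 1 to 5, and 35.3%, 35.3%, 36.6%, 35.0% and 34.8% in Y libraries 1 to 5. Every Ce library lay below every Y library (31.6% ± 0.94 against 35.4% ± 0.70, n = 5 each, two-sided exact permutation test p = 0.00794, the smallest value that 5 against 5 can give). This share is of raw totals and involves no scaling. The number of transcripts that together held 50% of the counts was 244 ± 10.4 in Ce and 204 ± 9.67 in Y, with ranges of 228 to 253 and 188 to 213. More transcripts were detected in Ce as well: at an equal depth of 16183384 counts, the total of the shallowest of the 10 libraries, 15076 ± 35.0 transcripts were expected to have a count in Ce and 14763 ± 18.5 in Y. Each of the 6 measures of this kind, the TMM factor included, separated the groups without overlap and gave the same exact permutation p of 0.00794, also after Benjamini-Hochberg adjustment over the 6. That test takes no account of the library numbers, which were taken to pair the libraries. Within the 5 pairs the two-sided exact permutation p of each of the 6 was 0.0625, the smallest that 5 pairs can give, so none passed 0.05 in that test.

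**Figure D2:**
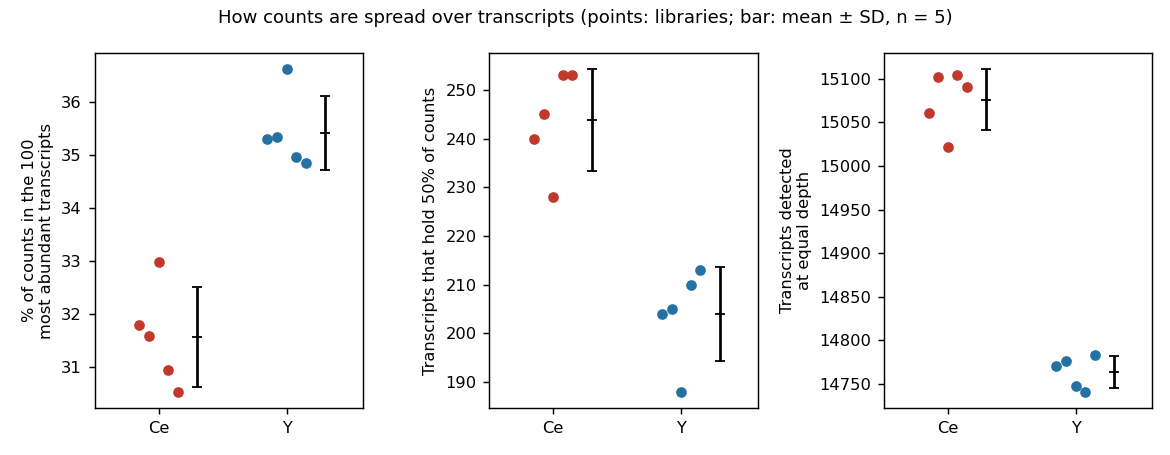
The 3 panels give, for each of the 5 Ce and 5 Y libraries, the percentage of counts in the 100 most abundant transcripts, the number of transcripts that hold 50% of the counts, and the number detected at an equal depth; bars are mean ± SD. In each panel the groups do not overlap, and Ce libraries have the lower share (31.6% against 35.4%) and the higher numbers of transcripts. The vertical axes do not start at 0.

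Among the 100 most abundant tested transcripts, 88 were called lower in Ce, 6 higher and 6 were not called by edgeR. Their median difference was -0.82 and the values ran from -1.72 to 0.77. With library totals alone the median log2 ratio of their group means was -0.28, in place of -0.82 with TMM scaling. Only 2 were called as more than 2-fold different, both lower. All 5 Ce libraries lay below all 5 Y libraries in 85 of the 100 with TMM scaling and in 65 with library totals alone, against 6 and 11 that lay above.

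The transcripts with the largest differences in mean CPM were then taken, 6 in each direction. Of the transcripts lower in Ce without overlap, the one with the largest loss had 9767 ± 530 CPM in Ce and 17968 ± 1051 in Y, a log2 difference of -0.88 ± 0.06 (SE, edgeR adjusted p = 6.53e-11). The third in that order fell most in proportion, from 7155 ± 1070 CPM in Y to 2173 ± 442 in Ce (-1.72 ± 0.16, edgeR adjusted p = 1.84e-06), with 1581 to 2739 CPM in the Ce libraries and 5813 to 8537 in the Y libraries. The 6 with the largest loss together held 4.53% ± 0.27 of all counts in Ce and 5.76% ± 0.18 in Y. On the other side, the transcript with the largest gain had 2271 ± 479 CPM in Ce and 711 ± 36.1 in Y (1.68 ± 0.12, edgeR adjusted p = 2.68e-08). It spread more in Ce, from 1838 to 3092 CPM, than in Y, from 648 to 740. The sixth by gain was the steadiest, at 1439 to 1535 CPM in the Ce libraries and 509 to 566 in the Y libraries (1.49 ± 0.05, edgeR adjusted p = 1.29e-14). The 6 with the largest gain held 1.78% ± 0.13 of all counts in Ce and 0.663% ± 0.033 in Y. Shares of counts here are of raw totals. The CPM and log2 values in this paragraph are TMM-scaled, so the sizes of loss and gain depend on the scaling and are not those of the shares.

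The transcripts with the largest fold differences were scarce ones. Cre02g079500 was at 2.46, 1.09, 1.43, 0.885 and 2.92 CPM in Ce libraries 1 to 5. In Y it was at 0 in 4 libraries and at 0.0565 CPM, a single count, in library 4. The ratio of pooled counts, 219 against 1, was 137 after scaling, with a 95% exact interval of 24.2 to 5416 that covers counting error only (edgeR adjusted p = 4.23e-07). Cre06g256150 was at 1.64, 1.38, 1.82, 1.04 and 1.51 CPM in Ce libraries 1 to 5 and had 1 count in all in Y, in library 2. Its ratio was 116 (95% exact interval 20.6 to 4604, edgeR adjusted p = 1.18e-09). In both, the size of the difference is limited by the single count in Y. That every Ce library lay above every Y library was part of the rule that picked them. Neither was tested when the minimum of counts came from the control, Tm and Mix libraries. Both were tested here through their counts in Ce.

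Cre12g556700 gave the largest difference in the other direction. It was at 12.6, 13.6, 15.5, 13.6 and 14.7 CPM in Y libraries 1 to 5 and at 0.286, 0.193, 0.394, 0.0769 and 0.319 CPM in Ce libraries 1 to 5. The log2 difference was -5.80 ± 0.19 (edgeR adjusted p = 8.17e-15), and it rests on 1105 counts in Y and 31 in Ce. Cre15g643050 was at 1.80, 1.53, 2.23, 2.37 and 2.86 CPM in Y libraries 1 to 5. In Ce libraries 1 to 5 it was at 0.179, 0.0643, 0.0984, 0.0385 and 0 CPM, 10 counts in all (-4.67 ± 0.37, edgeR adjusted p = 6.54e-10). The Y and Ce ranges of both lay apart, which was part of the rule that picked them.

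**Figure D3:**
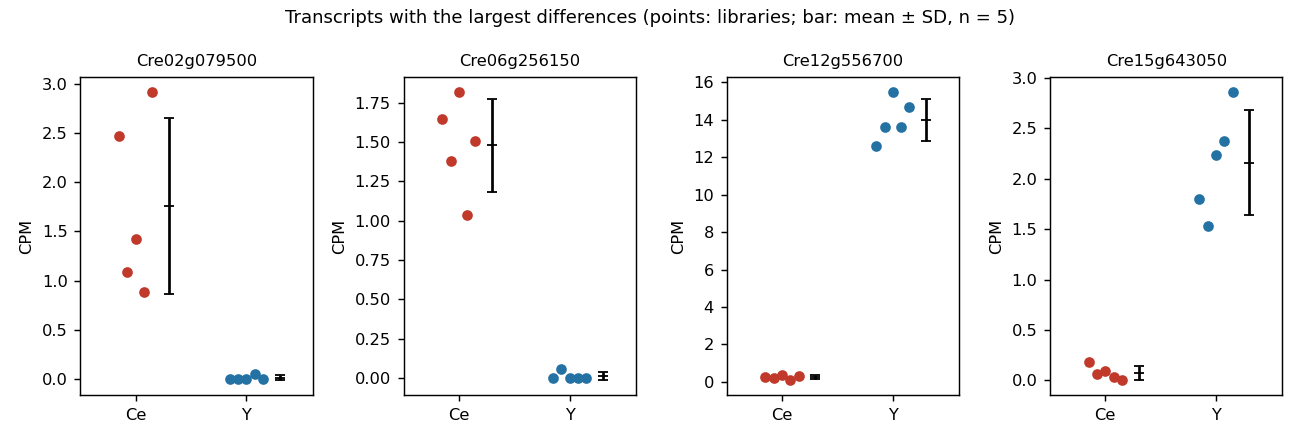
CPM of the 2 IDs with the largest difference in each direction, 1 panel each with its own vertical axis from about 0, in the 5 Ce libraries (red) and the 5 Y libraries (blue); bars are mean ± SD. Cre02g079500 and Cre06g256150 have 1 count each in all Y libraries together, and Cre12g556700 and Cre15g643050 are near 0 in every Ce library.

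The same IDs stood differently to the control. On a scale set over all 25 libraries, Cre02g079500 was at 0.334 ± 0.271 CPM in the control, 1.48 ± 0.74 in Ce, 0.00976 ± 0.0218 in Y, 0.201 ± 0.211 in Tm and 0.218 ± 0.088 in Mix. It rose in Ce (log2 difference from the control 1.98 ± 0.43, edgeR adjusted p = 0.000138) and fell in Y (edgeR adjusted p = 0.000206). Cre06g256150 was at 0.817 ± 0.552 CPM in the control, against 1.25 ± 0.24 in Ce and 0.0100 ± 0.0225 in Y. Here the change from the control was called in Y (edgeR adjusted p = 1.71e-07) and not in Ce (0.53 ± 0.35, edgeR adjusted p = 0.158). Cre12g556700 was at 0.0710 ± 0.0625 CPM in the control, with 6 counts in all, and rose in Y (7.35 ± 0.36, edgeR adjusted p = 1.09e-16) and to a far lower level in Ce (1.53 ± 0.57, edgeR adjusted p = 0.0161). Cre15g643050 was at 1.83 ± 0.91 CPM in the control and 1.86 ± 0.45 in Y (0.08 ± 0.29, edgeR adjusted p = 0.822), and it fell in Ce (-4.61 ± 0.43, edgeR adjusted p = 1.05e-10). The rise of Cre12g556700 in Ce rests on 31 counts in Ce and 6 in the control. The comparisons with the control share the control libraries. Their spread was estimated over all groups, while the control libraries spread more than the others. The SEs and p-values against the control may therefore be too small. The IDs were picked for their difference between Ce and Y, so these p-values carry that choice.

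Over transcripts picked for a large difference between Ce and Y, Tm and Mix libraries lay at the yttrium end by their median. For each transcript called as more than 2-fold different, the mean log2 CPM of Y was set to 0% and that of Ce to 100% on the scale of all 25 libraries. Over the 2387 transcripts higher in Ce, the median position was -3.25% ± 4.15 (SD over 5 libraries) in Tm and -2.28% ± 8.30 in Mix. Over the 1170 lower in Ce it was -3.90% ± 5.22 in Tm and -3.42% ± 7.49 in Mix. No Tm library was above 2.02% in either set and no Mix library above 8.30%, although the mixture holds cerium. On the side away from Ce, the lowest libraries were at -12.3% in Tm and -15.3% in Mix, both over the transcripts lower in Ce. By group means, Mix was nearer to Y than to Ce in 2261 of the 2387 transcripts (94.7%) and in 1035 of the 1170 (88.5%), and Tm in 2294 (96.1%) and 1114 (95.2%). A median near Y does not make these groups equal to Y. Of 12796 transcripts tested in the fit of all 25 libraries, edgeR called 2659 between Tm and Y and 4551 between Mix and Y. Between Tm and Ce it called 9796, and between Mix and Ce 10079. The spread in that fit was estimated over all groups, the more variable control included, so these counts may be too low. Between Ce and Y that fit called 73.7% of transcripts, against 81.7% in the fit of the 10 libraries. The labels leave unsaid whether the 0.5 µM of the mixture counts its metals together or singly, so the Ce dose in it is not known from them. In all 4 of the IDs named above, Mix lay between Y and Ce and edgeR called it different from both. These IDs were picked for the largest differences between Ce and Y. That choice favours finding any other group between them, and the p-values that follow carry it. Cre12g556700 was at 2.93 ± 1.00 CPM in Mix, below Y (log2 difference -2.04 ± 0.21, edgeR adjusted p = 4.47e-08) and above Ce (3.78 ± 0.29, edgeR adjusted p = 9.07e-12). Cre15g643050 was at 0.914 ± 0.287 CPM in Mix, again below the 1.86 ± 0.45 of Y (edgeR adjusted p = 0.0118) and above Ce (3.69 ± 0.46, edgeR adjusted p = 3.71e-08). Cre02g079500 and Cre06g256150 were higher in Mix than in Y (edgeR adjusted p = 0.00952 and 0.0158) and lower than in Ce (edgeR adjusted p = 6.54e-06 and 1.97e-06). With 1 count each in Y, no fold against Y is given for them. Tm was called different from Y in Cre02g079500 (edgeR adjusted p = 0.0188) and in Cre12g556700 (-0.95 ± 0.20, edgeR adjusted p = 0.00142), and was not called in Cre06g256150 (edgeR adjusted p = 0.119) or Cre15g643050 (-0.26 ± 0.29, edgeR adjusted p = 0.565).

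With TMM scaling the control lay between the metals by its median positions, though not in every transcript, and its libraries spread widely. Transcripts picked for a large difference between Ce and Y favour finding any other group between them. Over the transcripts higher in Ce, control libraries 1 to 5 had median positions of 71.2%, 23.6%, 25.0%, 8.98% and 44.5%. Over those lower in Ce the values were 95.8%, 45.1%, 45.5%, 30.4% and 66.3%. Control library 1 was nearest to Ce in both sets and library 4 nearest to Y. By group means the control was nearer to Y in 1516 of the 2387 transcripts higher in Ce (63.5%) and nearer to Ce in 621 of the 1170 lower in Ce (53.1%). It lay beyond Ce in 381 and beyond Y in 566 of the former, and beyond Ce in 336 and beyond Y in 246 of the latter. With library totals alone the mean position was 21.0% ± 28.4 in the first set and 106% ± 11.4 in the second, in place of 34.7% ± 24.0 and 56.6% ± 25.4. By group means the control then lay beyond Ce in 608 of the 1170, so in that set it was not between the metals. In both scalings Tm and Mix kept within 5% of the Y mean on average.

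**Figure D4:**
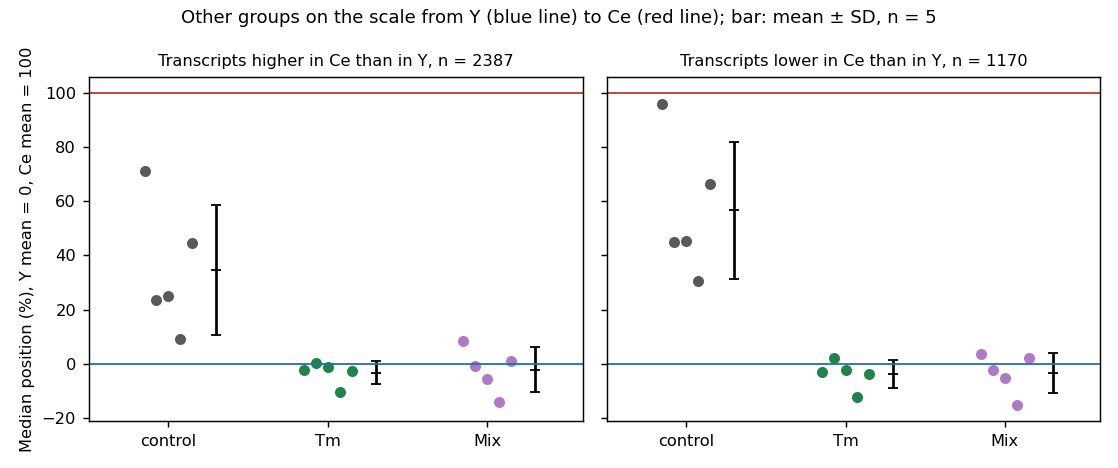
Median position of each control, Tm and Mix library on the scale from the Y mean (0%, blue line) to the Ce mean (100%, red line), over the 2387 transcripts more than 2-fold higher in Ce (left) and the 1170 more than 2-fold lower (right); bars are mean ± SD over 5 libraries. Tm and Mix libraries lie around the Y line, while the control libraries spread from 8.98% to 95.8%.

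Some transcripts were detected with one metal and not with the other. Of the 19526 transcripts counted, 27 had a count in all 5 Ce libraries and none in any Y library. In 7 the reverse held. With any count for one metal and 0 for the other, the numbers were 407 for Ce and 339 for Y. Depth was not made equal here, and the Ce totals ranged higher. The control, Tm and Mix libraries were not examined for this. None of the 27 or the 7 was abundant enough to be tested. Their summed counts ran from 6 to 43 in the 27 and from 7 to 22 in the 7. The one with the most counts in Ce had 9, 13, 7, 3 and 11 counts in libraries 1 to 5, or 0.338 CPM pooled. Against a limit of 3 counts over the Y group for a total of 0 (0.0378 CPM), its level in Ce was 8.93-fold higher. The corresponding one in Y had 11, 2, 3, 2 and 4 counts, or 0.277 CPM, which was 11.8-fold above the limit of 0.0236 CPM in Ce. These limits cover counting error only. Both transcripts were picked for a total of 0 in one group and the most counts in the other. The folds are therefore not lower bounds.

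Genes next to each other tended to differ in the same direction. The RefSeq annotation of assembly v5.5 was used only for the order of genes, and 8473 of the 12318 tested IDs were found in it. Across 5213 pairs of adjacent tested genes the log2 differences correlated at r = 0.18, across 4968 pairs with 1 gene between them at 0.07, and across pairs 3 to 50 genes apart between -0.02 and 0.02. This is a description across genes, which are not independent replicates. Of 512 adjacent pairs in which both genes were more than 2-fold different, 381 (74.4%) went in the same direction, while in pairs 3 to 50 genes apart that share was 53.5% to 60.2%. The longest runs of consecutive tested genes that were all more than 2-fold higher in Ce held 6 genes, and there were 3 of them. The longest that were more than 2-fold lower held 3 genes, with 15 such runs. Runs of 1 gene were the most frequent, 926 higher and 549 lower. More of the tested transcripts were more than 2-fold higher (19.4%) than lower (9.49%), which alone favours longer runs on the higher side. Whether the reads were counted by strand is not given in the sources used here, so the part of reads shared between overlapping neighbours was not tested.

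**Figure D5:**
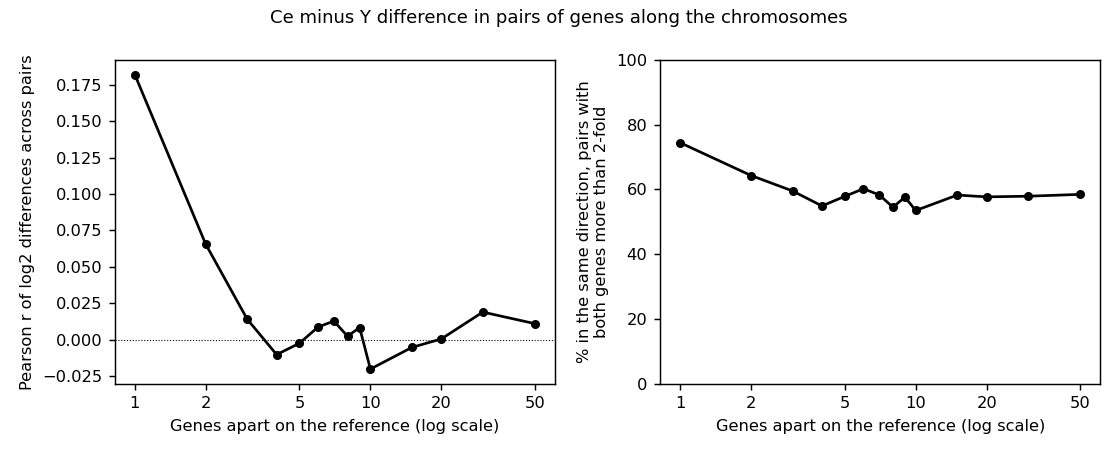
Pairs of tested genes by the number of genes they lie apart on the reference (horizontal axis, log scale): Pearson r of the log2 differences, Ce minus Y, across pairs (left), and the percentage of pairs that went in the same direction among those with both genes more than 2-fold different (right). The values are highest for adjacent genes, at 0.18 and 74.4%, and level off from 3 genes apart.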

How the data were processed

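The authors deposited raw counts: whole numbers for 19526 transcripts with 18024 distinct IDs, in 25 columns of 1 library each. The submitters' processing notes name SAMtools 1.2, TopHat2 2.0.14 and Trim Galore 0.3.7. How reads were counted, with which strand setting, and against which genome build and annotation is not given in the sources used here. Overlapping genes and near-identical copies may therefore share reads in unknown ways. Columns were matched to samples by their titles.

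In 34 cells, 12 of them in Ce or Y, the text "PAC:" stood in the number and was removed. IDs on 2 lines (1502) were kept as deposited. No 2 libraries of a group were alike within sampling noise (lowest chi-square per degree of freedom 4.63).

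The 10 Ce and Y libraries were fitted alone with edgeR 4.0.16 in R 4.3.3 (filterByExpr, TMM, robust quasi-likelihood test, Benjamini-Hochberg, threshold 0.05), since earlier results of these data showed a wider spread in the controls. The 2-fold test was glmTreat with a log2 threshold of 1. SEs are the absolute difference divided by the square root of F. Log2 CPM used a prior count of 2. Levels beside control, Tm and Mix come from a fit of all 25 libraries. Exact tests used SciPy 1.17.1. The code was tested on simulated data. DESeq2 1.42.0, other scalings, filters, readings of the table and left-out libraries were tried as alternatives.

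Both groups carry the numbers 1 to 5. Deviations from the group means correlated at 0.125 to 0.202 between Ce and Y libraries of the same number, and at -0.124 to 0.0900 between different numbers. The numbers were taken to pair the libraries, which the data and not the labels show.

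Comparison, lists and tests were chosen with earlier results of these data known. Named were to be the IDs with an adjusted p under 0.05, at least 1 CPM in the higher group and no overlap, by size of the difference. Where nothing annotates the IDs the rule allows 2 per direction, and that held: the reference gave 0 symbols other than locus tags, so the 15 gene lists and the protein signatures had 0 members and gave no result. Transcripts described without an ID were taken by the second part of that rule, the largest difference in mean CPM.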

Additional observations from a re-analysis of the deposited data

Results flagged for a closer look

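Of 28 groups of 5 libraries checked, 3 held a library farther from the others than expected by Dixon's ratio (critical value 0.71), where chance flags about 1 group in 20. For Cre02g079500 it was Y library 4, at 0.0565 CPM against 0 in the other 4. For Cre06g256150 it was Y library 2, at 0.0587 CPM against 0 in the other 4. Both values are a single count. The share of counts in the 100 most abundant transcripts was 36.6% in Y library 3, against 34.8% to 35.3% in the other Y libraries, which is farther from the Ce libraries and not nearer to them.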

How the results depend on the processing

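The number of calls kept within 1.5 times of 10073 under every alternative but the filter of at least 5 CPM in 5 libraries, which tested 7604 transcripts and called 6555, 3459 of them higher in Ce, and 1837 as more than 2-fold different (1264 higher, 573 lower). With library totals alone 2557 transcripts were lower in Ce, and 4058 and 328 were more than 2-fold higher and lower. With upper-quartile factors 747 were more than 2-fold lower. The share of calls higher in Ce was 53.7% with all 25 libraries in 1 fit, 51.1% with DESeq2, 75.4% with library totals alone, 51.2% with RLE factors, 63.5% with upper-quartile factors, 53.8% with the TMM reference that gave the lowest share and 52.8% with the stricter filter. With the replicate number as a block edgeR called 10332 transcripts, 10054 of them shared with the 10073, and the 4 named IDs kept their Ce-against-Y call. The positions and the comparisons with control, Tm and Mix were not fitted with that block. For the 6 measures of how counts are spread over transcripts, the test within pairs, added after seeing the data, gave p = 0.0625 each and so left none under 0.05 (exact permutation). Their differences, Ce minus Y, were -1.07, -3.85 and -4.25 percentage points for the shares of counts in the most abundant transcripts (3 list lengths), 313 transcripts at equal depth, 39.8 transcripts for 50% of counts and 0.374 in the TMM factor. Without 1 library at a time the calls numbered 9865 to 10122 (5444 to 5617 higher, 4386 to 4597 lower), those of more than 2-fold 3381 to 3610 (2253 to 2415 higher, 1092 to 1283 lower), and the share was 54.4% to 55.6%.

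From the least to the most abundant set, the median differences were 1.44, 1.18, 0.62 and -0.024 with library totals alone, and 1.05, 0.26, -0.13 and -0.53 with the stricter filter, which removes scarce transcripts and so moves the sets up in abundance, with 1.58 between the first and the last. Ordered by the control, Tm and Mix libraries, a choice made after seeing the data, they were 1.22, 0.53, 0.00058 and -0.61, with 1.83 between the ends. With low counts also removed by those libraries, a choice of the same stage, they were 0.77, 0.53, -0.0066 and -0.57, with 1.34 between the ends, and 53.7% of calls were higher in Ce. Without 1 library they ran from 0.84 to 0.96, 0.61 to 0.65, 0.068 to 0.092 and -0.59 to -0.56, and the distance from 1.40 to 1.53. With library totals alone the position of the control among transcripts lower in Ce was 106%, also tried after seeing the data. Those totals were tried for the 100 most abundant transcripts and for the distance between the sets at the same stage. The 4 named IDs kept their call and direction in each alternative that tested them; the highest adjusted p was 0.000161, for Cre02g079500, the stricter filter left only Cre12g556700 to test, and the filter by control, Tm and Mix only it and Cre15g643050. The cause of these shifts was not tested. Scarce transcripts limit the depth: a count of 0 in a group allows up to 3 counts.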
